A study of Mus musculus with 12 samples.

Results

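The tumour suppressor gene Trp53 and a set of its regulators and target genes were examined in primary mouse keratinocytes before and after differentiation. The genes were fixed by name: Trp53, Mdm2, Mdm4, Cdkn1a, Ccng1, Phlda3, Bax, Bbc3, Sesn1 and Zmat3. Of these 10 genes, 9 had at least 1 line in the deposited tables, which name 10751 genes in all, and Zmat3 had none. The cells came from newborn mouse epidermis and were grown on 3T3 fibroblast feeder cells that mitomycin C had stopped from dividing. Day 4 cells were differentiated by a calcium shift and day 0 cells were undifferentiated. No genotype, allele or drug treatment is given in the labels. Polyadenylated RNA was sequenced as input and after enrichment with an antibody against N6-methyladenosine (m6A), a methyl mark on adenosines inside mRNA, with 3 libraries for each day and kind, 12 in all.

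p53, the protein made from Trp53, is a transcription factor that accumulates after DNA damage and other stress. It switches on genes that act in the cell cycle (Cdkn1a, Ccng1), trigger cell death (Bax, Bbc3), restrain growth signalling (Sesn1, Phlda3) or process RNA (Zmat3). Mdm2, an E3 ubiquitin ligase that marks p53 for destruction, is itself a p53 target and closes a feedback loop, while its relative Mdm4 binds p53 and blocks its activity. In keratinocytes Cdkn1a, which encodes the cyclin-dependent kinase inhibitor p21, is also known for its part in withdrawal from the cell cycle.

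The files hold the authors' comparisons and one peak list per day and no value per library. Library depth and the spread between replicates are therefore unknown here, and a level at each day cannot be given. Nothing in the labels ties a replicate to an animal or culture of its own, so the authors' p-values reflect the spread among these libraries, which may be technical. Day 4 cells had also been longer in culture, which cannot be told apart from the calcium shift. In bulk RNA, fewer cells of a type and less RNA per cell cannot be told apart either. All 7 keratinocyte markers examined stood in the expression table, with mean normalized counts of 3145 to 209477 in the authors' deposited table. Of these 7, Krt15, Krt14 and Krt5 were higher at day 4 (log2 fold changes of 4.57, 1.06 and 0.96), and Itga6, Trp63, Itgb4 and Cdh3 were lower (-0.99 to -0.52) in the authors' deposited table. Of 5 differentiation markers 4 were listed in the authors' deposited table, with Krt1 (5.10), Ivl (3.67) and Krt10 (1.47) higher and Tgm1 (-0.53) lower. Krt1 was barely detected, averaging 2.65 normalized counts in the authors' deposited table, so the size of its rise is poorly known (SE 1.54). Ivl averaged 4194, Krt10 903 and Tgm1 6327 in the authors' deposited table. Markers of other cell types moved as well. Of 12 fibroblast and feeder markers 4 were listed, Col5a1 (4.58), Postn (3.66) and Pdgfra (1.73) higher and Col6a1 (-2.07) lower at day 4, with mean normalized counts of 50.9 to 305 in the authors' deposited table. Of 7 melanocyte markers Kit (6.14) and Mitf (1.65) were listed as higher, and of 6 immune and endothelial markers Pecam1 (2.32) was higher and Cd68 (-1.92) lower, with mean normalized counts of 4.74 to 159 in the authors' deposited table. The part of these cells in the results below was not tested.

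Upstream sequences of Cdkn1a and Ccng1 are shown because these were the members, both higher at day 4, in whose promoter windows a p53 response element was found. The windows came from RefSeq (GRCm38.p6, the assembly of mm10). They run from 250 bases before to 50 bases after an annotated transcript start, with 14 windows for 9 members. The element was searched by its consensus, a pair of 10-base repeats separated by at most 13 bases. At most 1 mismatch was allowed, and the C and G in the core of each repeat were required. The consensus reads the same on both strands, so a match covers both. The 250 bases before each start are given 5′ to 3′ in the direction of the gene, with the matched bases in capitals:
Cdkn1a, plus strand, chr17:29090729-29090978: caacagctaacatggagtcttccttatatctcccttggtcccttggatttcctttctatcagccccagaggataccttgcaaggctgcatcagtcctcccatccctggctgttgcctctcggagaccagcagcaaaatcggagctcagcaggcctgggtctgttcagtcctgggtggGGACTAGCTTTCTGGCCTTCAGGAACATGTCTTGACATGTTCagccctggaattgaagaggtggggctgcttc
Ccng1, minus strand, chr11:40755287-40755536: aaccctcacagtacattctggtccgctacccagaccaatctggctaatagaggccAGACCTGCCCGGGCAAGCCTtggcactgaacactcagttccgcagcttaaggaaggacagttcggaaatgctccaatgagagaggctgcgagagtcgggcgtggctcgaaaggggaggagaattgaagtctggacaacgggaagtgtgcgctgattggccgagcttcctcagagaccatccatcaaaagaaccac

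The capitals of Cdkn1a hold 2 overlapping matches. One is the compact element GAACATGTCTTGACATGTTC, with no bases between its repeats and 1 mismatch, which begins 51 bases before the transcript start at 29090979 and 2841 bases before the second annotated start of the gene. The other, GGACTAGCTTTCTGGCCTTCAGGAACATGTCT, has no mismatch and 12 bases between its repeats, and shares a repeat with the first. In Ccng1 the element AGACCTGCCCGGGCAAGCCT, with no spacer and 1 mismatch, begins 195 bases before the start. Of all 32851 promoter windows, 0.627% held such an element. No match in the other windows says only that these letters are not in these windows.

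Expression was compared to ask which of these transcripts change as epidermal progenitors differentiate. Among the members, the target genes listed as changed (Mdm2, Cdkn1a, Ccng1, Bax and Sesn1) were higher at day 4, while Trp53 itself was lower. The pair of p53 antagonists went apart, Mdm2 up and Mdm4 down. The changes were small, with Sesn1 the sole member to reach 2-fold. By the authors' DESeq2 adjusted p of at most 0.05, 5 members rose, 2 fell and 3 (Phlda3, Bbc3 and Zmat3) were not listed. Over all genes tested, 53.5% were called, 27.1% higher and 26.4% lower. Absence from the table means that a gene missed the limit or was never tested. Mean normalized counts are not corrected for transcript length, so they give the counts behind each change and no order of levels between genes.

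**Figure D1:**
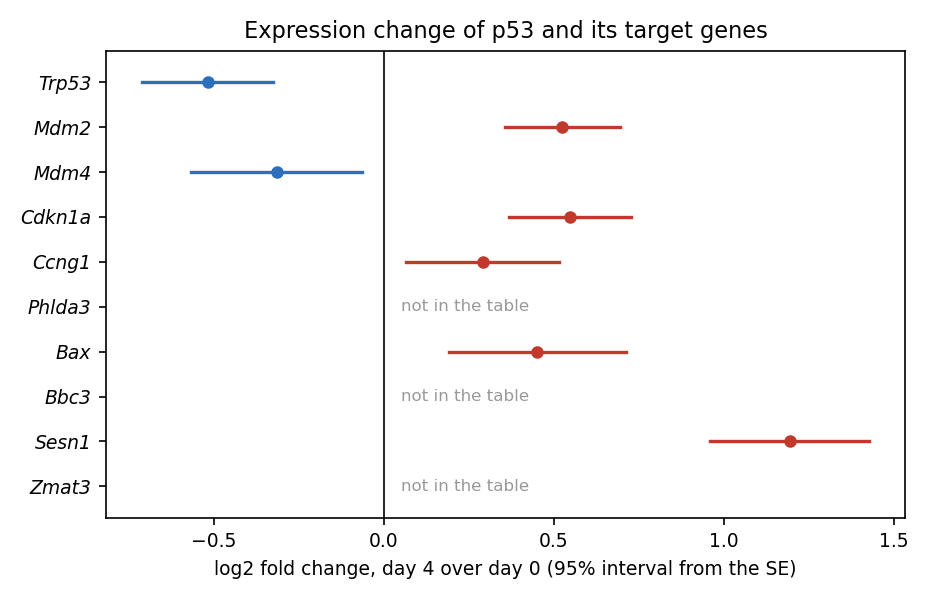
Log2 fold change of each of the 10 genes, day 4 over day 0, with the 95% interval from the SE in the authors' deposited table. Red marks genes higher and blue genes lower at day 4, and the intervals of all 7 listed genes lie on one side of 0.

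Trp53 (chromosome 11, 69580348 to 69591873, mm10) fell at day 4 to 0.698 times its day 0 level (95% interval 0.611 to 0.798). In the authors' deposited table its log2 fold change was -0.52 with an SE of 0.10 (DESeq2 adjusted p = 5.3e-07) at a mean normalized count of 1754. Wrap53, a gene that lies head to head with Trp53 and whose human counterpart is known to give an antisense RNA to it, ends 97 bases before the RefSeq span of Trp53. Wrap53 also fell, with a log2 fold change of -0.44 (SE 0.15, DESeq2 adjusted p = 0.0079) in the authors' deposited table. The library kit kept strand, but no source used here says whether counting did, so reads from an antisense RNA within Trp53 cannot be told apart.

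Mdm2 (chromosome 10, 117688875 to 117710758) rose 1.44-fold (95% interval 1.28 to 1.62), with a log2 fold change of 0.52 (SE 0.09, DESeq2 adjusted p = 6.2e-09) at a mean normalized count of 2186 in the authors' deposited table. Mdm4 (chromosome 1, 132986105 to 133030587) fell to 0.804 times its day 0 level (95% interval 0.675 to 0.957). Its log2 fold change was -0.32 with an SE of 0.13 (DESeq2 adjusted p = 0.028) at a mean normalized count of 2568 in the authors' deposited table. The Mdm4 call was near the limit of the table and would not pass an adjusted p under 0.01, which 5 members and 45.4% of all genes tested did. The intervals of Mdm2 and Mdm4 lay on opposite sides of 0, although the difference itself was not tested. The RefSeq span of Mdm4 overlaps 2 other genes, the pseudogene Gm29257 and the long noncoding RNA gene Gm41953. No source used here says how reads from such shared stretches were counted.

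Among the cell cycle genes, Cdkn1a (chromosome 17, 29090979 to 29100722) rose 1.46-fold (95% interval 1.29 to 1.65). Its log2 fold change was 0.55 with an SE of 0.09 (DESeq2 adjusted p = 1.1e-08) at a mean normalized count of 3322 in the authors' deposited table. Ccng1 (chromosome 11, 40748552 to 40755309), which encodes cyclin G1, an atypical cyclin, rose 1.22-fold (95% interval 1.05 to 1.43). Its log2 fold change was 0.29 with an SE of 0.12 (DESeq2 adjusted p = 0.024) at a mean normalized count of 5808 in the authors' deposited table. Ccng1 had the smallest change of the 7 listed members and, like Mdm4, would not pass at 0.01.

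Bax (chromosome 7, 45461695 to 45466903), which encodes a protein that opens pores in the mitochondrial outer membrane, rose 1.37-fold (95% interval 1.14 to 1.64). Its log2 fold change was 0.45 with an SE of 0.13 (DESeq2 adjusted p = 0.0017) at a mean normalized count of 1280 in the authors' deposited table. Bbc3 (chromosome 7, 16308398 to 16318334), which encodes the death-promoting BH3-only protein Puma, was not listed, so the members of the cell death arm have a single listed change.

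Sesn1 (chromosome 10, 41810574 to 41908436) encodes sestrin 1, a stress protein that restrains the growth kinase complex mTORC1. It rose 2.29-fold (95% interval 1.95 to 2.69), with a log2 fold change of 1.19 (SE 0.12, DESeq2 adjusted p = 1.3e-22) at a mean normalized count of 434 in the authors' deposited table. Its interval lay above those of the other 6 listed members. Over all genes tested, 21.2% were called with a change of at least 2-fold, against this 1 of 10 members. Phlda3 (chromosome 1, 135766085 to 135769134), whose protein competes with the kinase Akt for membrane lipids, was not listed. Zmat3 (chromosome 3, 32334792 to 32365665), which encodes an RNA-binding zinc finger protein, was in none of the files.

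Peaks were listed by day, to ask which stretches of these transcripts carried m6A. Transcripts of 9 members carried a listed peak at day 4 and those of 8 members at day 0, and the difference was Bbc3, with a peak at day 4 only. All 7 members of the expression table had a peak on both days. Over all genes listed there, 55.8% had a day 4 peak, 59.5% a day 0 peak and 49.5% a peak on both days. The members had 27 peaks at day 4 and 21 at day 0, while the whole lists held 18423 at day 4 and 19920 at day 0. Of the members' peaks, 20 of 27 at day 4 overlapped a day 0 peak (74.1%, against 78.9% of the whole list) and 19 of 21 at day 0 overlapped a day 4 peak (90.5%, against 70.2%). Overlap means at least 1 bp on the same strand. These are counts of positions with no replicate test, since no source used here says how the libraries of a day were joined.

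**Figure D2:**
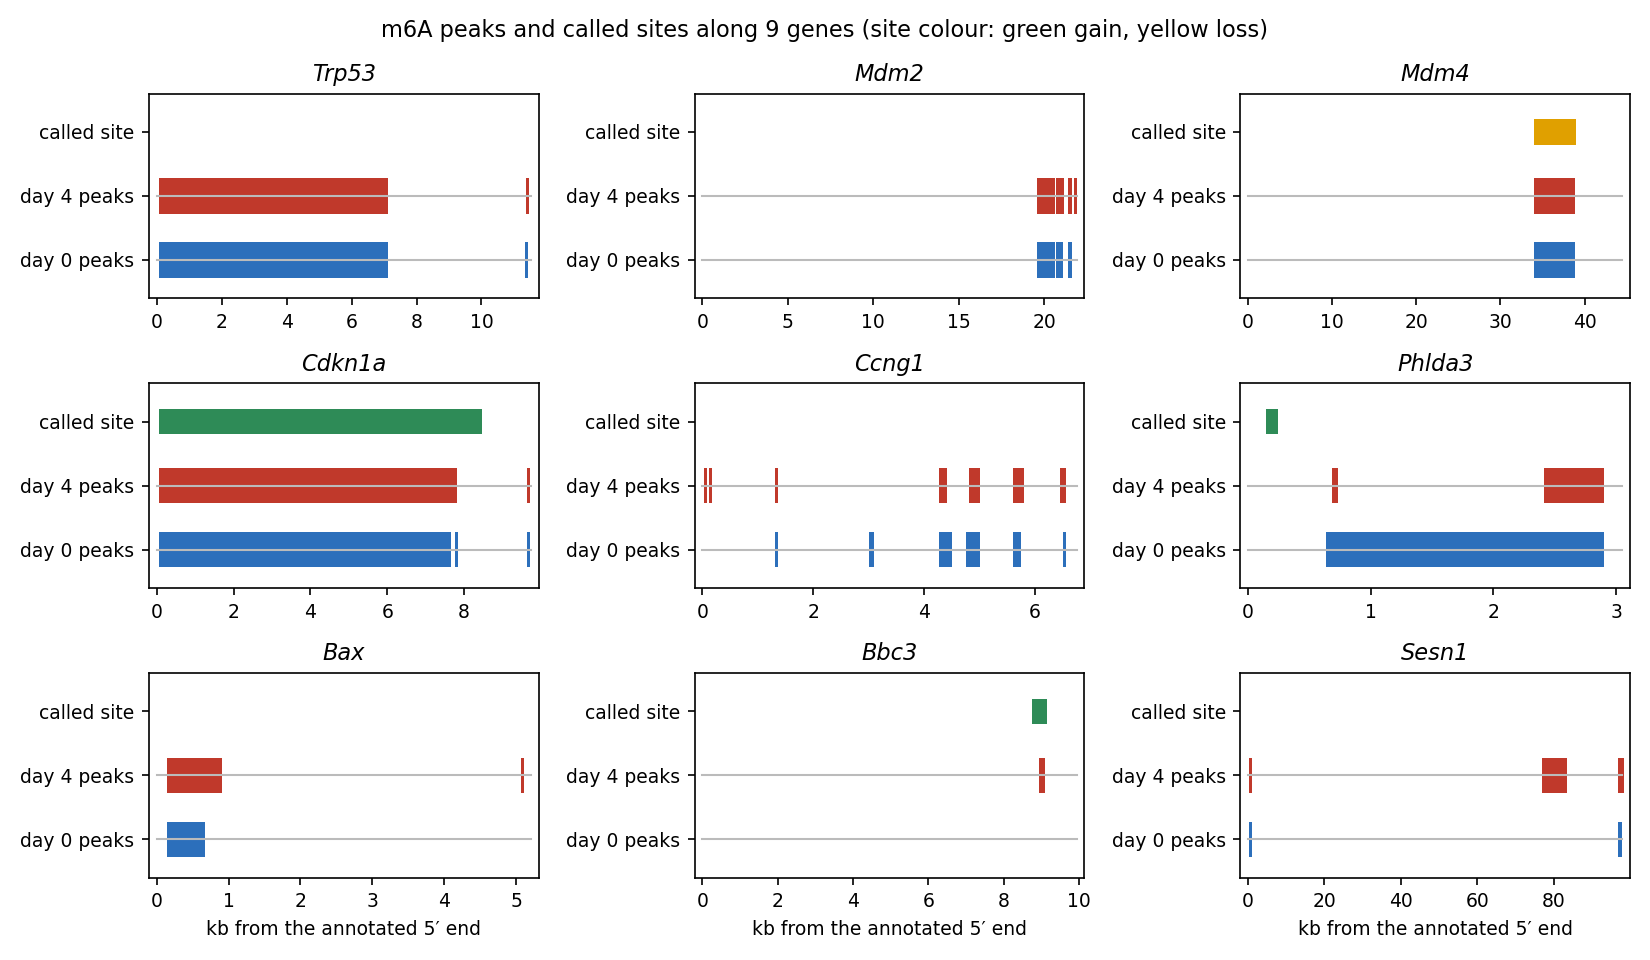
Position of listed m6A peaks and called methylation sites along 9 genes, in kb from the annotated 5′ end, with day 4 peaks (red) above day 0 peaks (blue) and called sites on top (green for gains, yellow for losses). Features too short to see are drawn at 0.8% of the gene's span. Most day 4 peaks sit over a day 0 peak, and Bbc3 has a peak at day 4 only.

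Each peak has an enrichment score, the authors' own value, whose scaling is not stated, so scores rank peaks within a day and are not compared between days. Mdm4 had the highest score among the members in both lists, at 547 in the day 4 list and 504 in the day 0 list. This placed it at or above 99.7% of day 4 peaks and 98.7% of day 0 peaks. The single Mdm4 peak ran from 132991720 to 132996571 at day 4 and from 132991670 to 132996571 at day 0. It ended 5615 bp before the annotated 3′ end of the gene at day 4 and 5565 bp before it at day 0. The same stretch of Mdm4 was thus among the highest-scoring peaks of each list.

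Bax had the lowest top score of the members with a peak in each list, with scores of 1.82 and 3.57 at day 4 and 4.36 at day 0. Its shared peak began 150 bp from the 5′ end of the gene on both days, and its weak day 4 peak from 45461791 to 45461840 had the authors' unadjusted p = 0.0012. The median score was 8.56 over the members' day 4 peaks, against 17.1 over the whole day 4 list. At day 0 it was 11.2 over the members' peaks, against 21.4 over the whole list. Counted peak by peak, members' peaks were therefore mostly in the lower-scoring part of each list, with Mdm4, Mdm2 and Sesn1 holding the top scores. The top peak of each gene was also read, although a maximum of several peaks tends to pass a median of single peaks. The highest-scoring day 4 peak of each member with one was above the list median, except in Bax. At day 0 the highest-scoring peak was above the list median except in Bax and Ccng1. The share of all genes whose top peak passes the median was not counted, so this does not set the members apart.

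**Figure D3:**
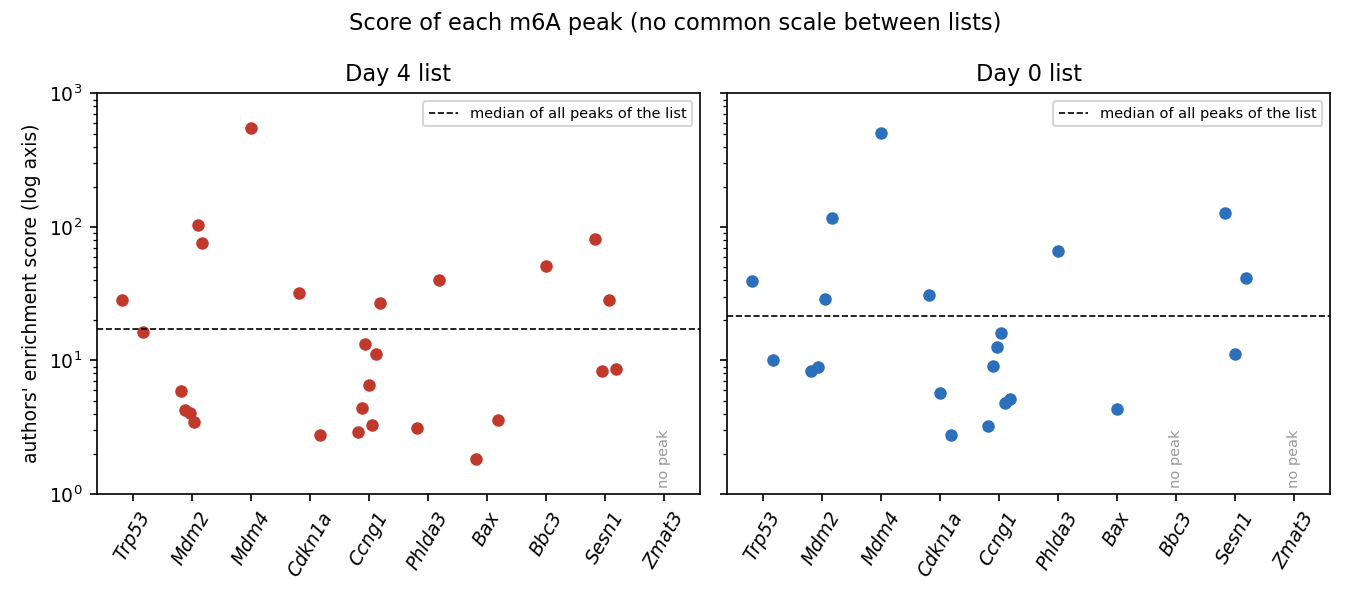
Enrichment score of each listed m6A peak of the members on a log axis, day 4 list on the left and day 0 list on the right, with the median of the whole list dashed (17.1 at day 4, 21.4 at day 0). Mdm4 stands at the top of both panels, Bax near the bottom, and Bbc3 has no peak at day 0.

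In Mdm2 the peaks lay in the last part of the gene. The longest ran from 117690125 to 117691182 on both days, with a score of 76.0 in the day 4 list and 118 in the day 0 list. A short neighbour from 117690025 to 117690074, with a score of 103 in the day 4 list and 29.0 in the day 0 list, was also at the same position. Mdm2 had 6 peaks at day 4 and 4 at day 0, of which 1, from 117688925 to 117689024, had no counterpart at day 0. That peak ended 50 bp from the annotated 3′ end.

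Trp53 had a peak from 69580408 to 69587454 on both days, with a score of 28.4 in the day 4 list and 39.2 in the day 0 list. The span of 7047 bp may cross introns, which could not be placed without an exon annotation. A second peak near the 3′ end covered 69591726 to 69591775 at day 4 and 69591677 to 69591775 at day 0. The long peak of Trp53 thus had the same ends on both days and the second peaks overlapped, which does not place the methylated bases within them. No site in Trp53 was called as differentially methylated.

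For Cdkn1a the day 4 list held 2 peaks and the day 0 list 3. The day 4 peak from 29091035 to 29098783 covers both the day 0 peak from 29091035 to 29098635 and the one from 29098734 to 29098783, with the stretch between them. The long peak begins 56 bases after the upstream transcript start, the one that follows the p53 element printed above, and its span runs past the second annotated start. Its score was 32.2 in the day 4 list and 30.9 in the day 0 list. Peaks at the 3′ end from 29100624 to 29100673, with scores of 2.76 in the day 4 list and 2.74 in the day 0 list, stood in the same place.

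Ccng1 had 7 peaks at day 4 and 6 at day 0, spread over the gene. Those without a counterpart on the other day lay at the 5′ end at day 4 and inside the gene at day 0. At day 4 there were 2 such peaks. One covered 40755137 to 40755186 with a score of 11.2 (unadjusted p = 6.7e-18, given by the authors) and the other 40755237 to 40755286 with a score of 26.8 (unadjusted p = 3.0e-15). The second of these begins, in the direction of the gene, at the annotated transcript start that follows the printed Ccng1 sequence, so it covers the first 50 bases of the transcript, and it had the highest score of Ccng1 in the day 4 list. At day 0 the unmatched peak ran from 40752207 to 40752306, beginning 3003 bp from the 5′ end of the 6758 bp gene (score 4.78, the authors' unadjusted p = 6.6e-13). Within the day 0 list the highest score of Ccng1, 16.0, was at 40750794 to 40751042.

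Sesn1 had 4 peaks at day 4 and 3 at day 0. A peak from 41810923 to 41811271, beginning 349 bases after the upstream transcript start, was listed with the same ends on both days, with a score of 81.7 in the day 4 list and 127 in the day 0 list. A day 4 peak from 41887559 to 41894054 (score 8.39, the authors' unadjusted p = 1.7e-05) had no counterpart at day 0 and begins 120 bases after the second annotated start. The rest ended 299 to 598 bp before the 3′ end at day 4 and 648 to 997 bp before it at day 0. Among these, the day 4 peak from 41908038 to 41908137 (score 8.56, the authors' unadjusted p = 1.4e-07) also overlapped no day 0 peak. Day 4 peaks with no day 0 counterpart were thus found in Sesn1, Mdm2, Ccng1, Bax and Bbc3, 5 of the 9 members with a day 4 peak, against 37.4% of all genes with one. Day 0 peaks with no day 4 counterpart were found in Sesn1 and Ccng1, 2 of the 8 members with a day 0 peak, against 46.8% of all genes with one. The unmatched day 0 peak of Sesn1 ran from 41907390 to 41907439 (score 11.2, the authors' unadjusted p = 1.5e-04). It directly adjoins the day 4 peak from 41907440 to 41907838 without sharing a base, so it is no clear loss.

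Phlda3 was covered at day 0 by 1 peak from 135766720 to 135768987 (score 66.1). At day 4 the list held 2 peaks inside that span, from 135766769 to 135766818 (score 3.14) and from 135768499 to 135768987 (score 40.1). The strongest part on each day reached to 147 bp from the annotated 3′ end. Bbc3 had its only peak at day 4, from 16317347 to 16317494, 840 bp before the 3′ end (score 50.6, the authors' unadjusted p = 1.4e-09).

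Differential methylation was listed by site, to ask where m6A differs between the days. Sites were called in 4 members, Bbc3, Cdkn1a and Phlda3 with gains at day 4 and Mdm4 with a loss. Of the sites tested, 6.96% were called, 4.79% as gains and 2.17% as losses. Since sites tested per gene are not listed, the members were read per gene. A called site was found in 4 of the 9 members with a peak (44.4%), and in 25.2% of all genes with a peak on either day. The log base of the changes is not stated in the deposited file. No source used here says whether they are corrected for transcript level, so a change in m6A cannot be told from a change in expression. Cdkn1a (log2 fold change in expression 0.55) and Mdm4 (-0.32), the members with both values listed, moved the same way in both. Whether the site changes follow expression was not tested.

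**Figure D4:**
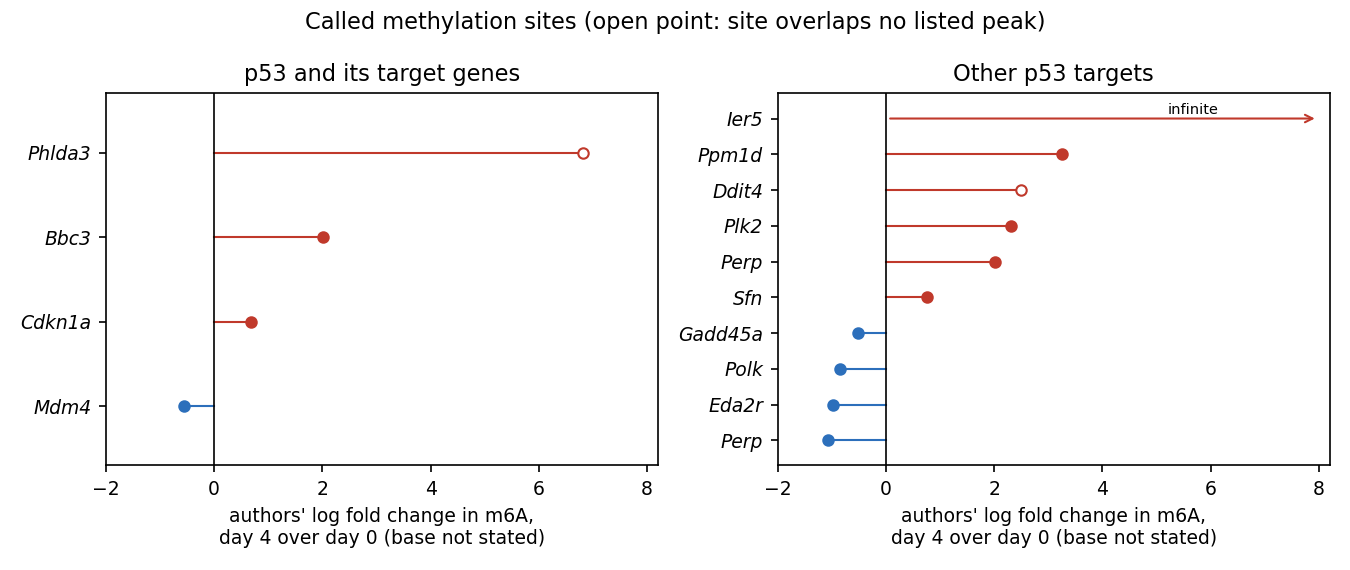
The authors' log fold change in m6A, day 4 over day 0, at each called site of the members (left) and of the other p53 targets (right), red for gains and blue for losses. Open points, and the infinite gain of Ier5 drawn as an arrow, are sites that overlap no listed peak, and Phlda3 and Bbc3 have the largest gains among the members.

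The gain of Bbc3 had the strongest support. Its site from 16317149 to 16317544 had a log fold change of 2.02 with a false discovery rate of 1.3e-14, which ranked 28 of 2561 sites in the authors' deposited table. The site surrounds the day 4 peak and overlaps no day 0 peak, which makes it one of the sites from which the direction of the methylation table was read. Expression of Bbc3 was not listed as changed.

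In the authors' deposited table the Cdkn1a gain had a log fold change of 0.68 and a false discovery rate of 0.022, at a site from 29091035 to 29099438 that covers the long peak of both days. In the authors' deposited table the Mdm4 loss had a log fold change of -0.55 and a false discovery rate of 0.0079, at a site from 132991620 to 132996621 around its single peak. Both were smaller than the median change in their direction, which over all finite sites of the authors' deposited table was 1.82 among gains and -0.83 among losses. In Phlda3 the site from 135766232 to 135766329 had a log fold change of 6.82 and a false discovery rate of 0.032, and was the second highest finite gain of the authors' deposited table. It lies 147 bp from the 5′ end and overlaps no listed peak of either day, and it was no longer called at a limit of 0.01. Trp53, Mdm2, Ccng1, Bax and Sesn1 had no called site.

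A longer list of 35 other p53 target genes was examined in the same way. It split into both directions, with 13 higher at day 4, 8 lower and 14 not listed (60% called, against 53.5% of all genes tested). The median log2 fold change of the 21 listed genes was 0.37, against 0.26 over all genes of the authors' deposited table. A change of at least 2-fold was called in 8 of the 35, 7 higher and 1 lower, against 21.2% of all genes tested, 11.3% higher and 9.9% lower.

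Leading rises were those of Thbs1, which encodes the matrix protein thrombospondin 1 (log2 fold change 2.36, SE 0.34), and the immediate early gene Ier5 (2.35, SE 0.10) in the authors' deposited table. They were followed by the tetraspanin gene Cd82 (1.83, SE 0.14), the p53-inactivating phosphatase gene Ppm1d (1.61, SE 0.11) and Trp53inp1 (1.44, SE 0.18), whose protein promotes p53 activity, in the authors' deposited table. Rises thus included genes that act on p53 in either sense. Ckap2 (-1.86, SE 0.13) and Gtse1 (-0.79, SE 0.12), which act on microtubules in dividing cells, fell in the authors' deposited table, Ckap2 the most of the 8 genes that were lower. The growth arrest gene Gadd45a (-0.98, SE 0.15), the autophagy gene Dram1 (-0.66, SE 0.15) and the death receptor gene Tnfrsf10b (-0.56, SE 0.16) also fell in the authors' deposited table. All 10 passed the DESeq2 adjusted p of 0.05, with the highest, 0.0010, at Tnfrsf10b.

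**Figure D5:**
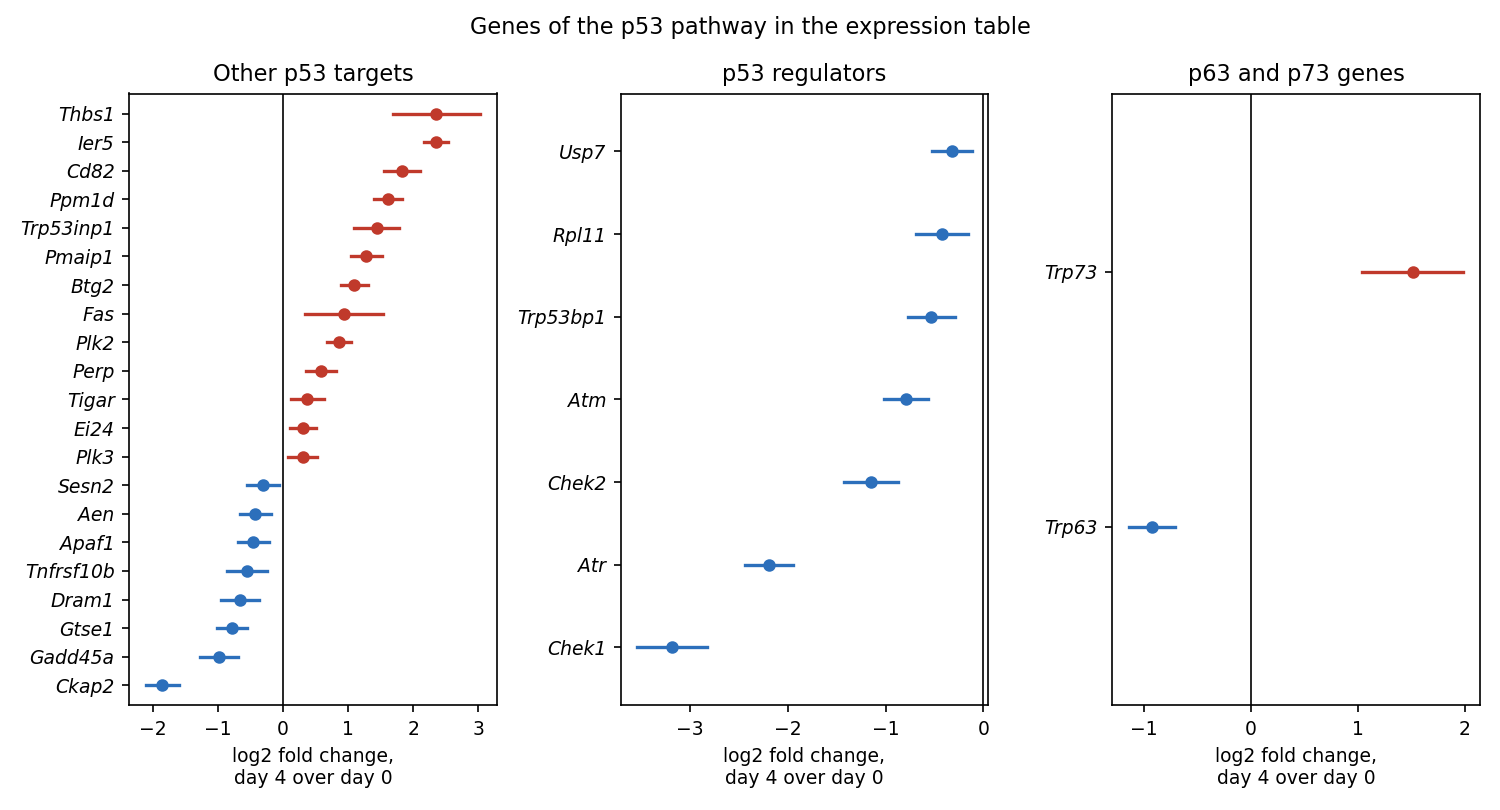
Log2 fold change, day 4 over day 0, with the 95% interval for every gene of the 3 lists that stands in the authors' deposited table: 21 other p53 targets (left), 7 p53 regulators (middle), and Trp63 and Trp73 (right). Targets lie on both sides of 0, and all 7 regulators lie below it.

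Of these 35 targets, 26 had a peak at day 4 and 27 at day 0. Among the 21 in the expression table, 17 had a day 4 peak, 17 a day 0 peak and 16 both, against 55.8%, 59.5% and 49.5% of all genes listed there. They had 10 called sites in 9 genes, 6 gains and 4 losses, so 32.1% of the 28 genes with a peak had a called site, against the 25.2% of all such genes. Among the genes named above, the authors' deposited table gave Ppm1d a gain 100 bp from its 5′ end (log fold change 3.25, false discovery rate 2.3e-05). The authors' deposited table gave Ier5 an infinite gain (false discovery rate 7.3e-04) and Gadd45a a loss (log fold change -0.52, false discovery rate 0.028). The site of Ier5 overlaps no listed peak.

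A list of 15 other genes that act on p53, which holds neither Mdm2 and Mdm4 nor the targets above, was also read. Of these 15 regulators, 7 fell, 0 rose and 8 were not listed, against 26.4% lower and 27.1% higher of all genes tested by DESeq2. How many of the 8 had an unadjusted p under 0.05 cannot be read from a table that lists called genes only. The damage kinase genes Chek1 (log2 fold change -3.18, SE 0.18), Atr (-2.19, SE 0.13), Chek2 (-1.15, SE 0.14) and Atm (-0.79, SE 0.11) fell the most in the authors' deposited table. Trp53bp1, whose protein gathers at DNA breaks, also fell (-0.53, SE 0.12) in the authors' deposited table. Chek1 and Atr had 1 peak each and Usp7, another of the 7, had 3, all at day 0 only. These genes are therefore also among those that set the direction.

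The p53 relatives went apart. Trp63, which encodes p63, the master regulator of the basal epidermis, fell to 0.528 times its day 0 level (95% interval 0.455 to 0.614). Its log2 fold change was -0.92 with an SE of 0.11 (DESeq2 adjusted p = 9.1e-16) at a mean normalized count of 3145 in the authors' deposited table. Trp73 rose 2.85-fold (95% interval 2.06 to 3.96), with a log2 fold change of 1.51 (SE 0.24, DESeq2 adjusted p = 1.7e-09) at a mean normalized count of 70.5 in the authors' deposited table. Trp63 had 2 peaks at day 4 and 4 at day 0. Trp73 had 2 at day 4 and none at day 0, the higher with a score of 254 in the day 4 list. Trp73, with peaks at day 4 alone, is among the genes from which the direction of the expression table was read, so its rise is no separate check of that direction.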

How the data were processed

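Per the labels' protocols, polyadenylated RNA was fragmented by sonication, enriched with an m6A antibody kit and sequenced from stranded libraries. Per the submitters' processing notes, HISAT2 2.1.0 and DESeq2 1.18.1 were used with build mm10. No source used here names the peak caller or the methylation test. Per the file headers, the peak lists hold an enrichment score and an unadjusted p-value per peak. The expression table holds, per the file headers, the authors' averaged signal (the mean normalized count), log2 fold change, SE and adjusted p. The methylation table holds the authors' log fold change, treated as a score, with a p-value and false discovery rate. Both comparison tables list called lines only, and the adjustment implies 14924 genes and 36796 sites tested.

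No header names a direction. It was read as day 4 over day 0, because 93.8% of listed genes with a peak at day 4 only had a positive change and 96.0% of those with a peak at day 0 only a negative one. Of called sites that overlap a day 4 peak only, 98.8% had a positive change, and of those that overlap a day 0 peak only, 75.6% a negative one. So the sign of the methylation table rests on a weaker check. Changes of listed genes with peaks on a single day, among them Dram1, Trp53inp2 and Mtbp, are no separate check of the direction. The same holds for the Ppm1d site, which overlaps a day 4 peak only.

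Peaks were compared with bedtools 2.31.1 and gene spans taken from RefSeq (GRCm38.p6), using Python 3.11.15, pandas 2.3.3 and scipy 1.17.1. Intervals are log2 fold change ± the normal 95% multiple of the SE, and folds are powers of 2 of these. Of the steps, only the implied number of tests, the overlap of intervals and the element search were tested, on simulated or constructed data. Members, lists and tests were chosen with earlier results of these data known. Named genes are all 10 members, Trp63, Trp73, and up to 5 rises and 5 falls per list at a mean normalized count of at least 100. Alternatives were stricter limits, a minimum level, other overlap rules and other element settings. Sequence under the peaks was not analysed here. From the list of other p53 targets 1 gene is not reported here, and counts leave it out.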

Additional observations from a re-analysis of the deposited data

How the results depend on the processing

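No paired analysis was possible because the files hold no value per library, and for the same reason no replicate could be left out. When a 2-fold change was required, 1 member remained called by DESeq2 (1 higher, 0 lower), and 8 of the other p53 targets (7 higher, 1 lower). At an adjusted p under 0.01 there was 1 lower member, Trp53, in place of 2, since Mdm4 was lost. At a false discovery rate under 0.01, 2 of the 4 methylation sites were left, those of Bbc3 and Mdm4. Of all 2561 called sites, 1362 were left. Of the members' peaks, 10 at day 4 and 8 at day 0 scored at or above their list's median. With element settings chosen after the data were seen, 1 member had a p53 element when no mismatch was allowed, Cdkn1a, and 4 when up to 2 were, with Bax and Sesn1 added. The setting without mismatches was met by 0.0731% of all windows, and the last setting by 4.09%. The other 18 alternatives stayed within 1.5 times the reported counts. Without depth per library, an unlisted gene or peak cannot be told from one too thinly covered to call, which holds for the Bbc3 peak at day 0, for Zmat3 and for the expression of Phlda3 and Bbc3.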

Other observations

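Beyond these lists, 8 genes of the expression table have a deposited description that names p53, Trp53 or Mdm2. They were found by that text after the data were seen, 5 higher and 3 lower at day 4. Trp53inp2, which takes part in autophagy, had a log2 fold change of 1.90 (SE 0.13), the long noncoding RNA gene Lincpint 1.80 (SE 0.26) and Trp53i11 1.37 (SE 0.16) in the authors' deposited table. The authors' deposited table gave 0.94 (SE 0.11) for Cdip1 and 0.65 (SE 0.11) for Pdrg1. Mtbp, whose product is known as an Mdm2-binding protein, had the largest fall of the 8 (-2.40, SE 0.15) in the authors' deposited table, and 1 peak at day 0 against none at day 4. Tprkb (-0.30, SE 0.13) was slightly lower in the authors' deposited table, as was Wrap53.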
